A study of Homo sapiens with 2 samples.

Results

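The genes described here were 10 members of the BCL2 family, matched by name among 20033 protein-coding genes: the survival members BCL2, BCL2L1 and MCL1, and the death-promoting members BCL2L11, BAX, BAK1, BBC3, PMAIP1, BAD and BID. Peaks were given to a gene when they lay within 3000 bp of any of its annotated transcript starts, over its body, or within 1000 bp past its end. This placed 73 of 97162 peaks of replicate 1 and 65 of 68532 peaks of replicate 2 at the 10 genes. Of these, 29 and 19 belonged to survival members and 44 and 46 to death-promoting members.

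Cells of J.gamma1, a human line of T-cell acute lymphoblastic leukemia (T-ALL), were examined by CUT&Tag for NUDT21 in 2 replicates that formed 1 group. NUDT21 is a subunit of the complex that helps choose where a pre-mRNA is cleaved and polyadenylated, and the study asked where on chromatin it lies. In CUT&Tag an antibody tethers a transposase to its target, and the DNA released there is sequenced. No untreated, knockdown or antibody control sample was analysed here, so the values below describe levels within this line and test no difference between conditions.

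The BCL2 family sets the threshold of the mitochondrial pathway of apoptosis. Survival members hold BAX and BAK1 in check, while members that carry only a BH3 domain (BCL2L11, BBC3, PMAIP1, BAD and BID) bind the survival members or act on BAX and BAK1 directly, and BAX and BAK1 then permeabilize the outer mitochondrial membrane. Developing thymocytes and T-ALL cells are known to depend on survival members to different degrees, and drugs that mimic a BH3 domain act on them.

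Each peak carried a fold enrichment at its summit, which is a pileup of fragments over a local control level. The level may come from a control library that the sources used here do not describe, since the peak caller had scaled the pileup of replicate 1 by 0.921. Replicates differed in depth, with a median of 29 fragments at a summit in replicate 1 and 19 in replicate 2, so a peak was placed by the percentage of peaks of its own list with a lower fold, called its percentile. Promoter peaks are those with an edge 3000 bp or less from any transcript start of the gene. Positions are given relative to the main transcript start (the Ensembl canonical transcript), positive in the direction of transcription.

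A promoter peak was present in each replicate at 9 of the 10 genes, where 57.0% of all protein-coding genes had one. All 3 survival members and 6 of 7 death-promoting members were among them, and PMAIP1 had a promoter peak in replicate 1 only. When the promoter peaks of both replicates had to overlap, 8 genes remained, against 55.9% of all protein-coding genes, and BCL2 dropped out because its peaks lay at different places. The main transcript start itself lay inside a peak of both replicates at 6 genes (BCL2L1, MCL1, BCL2L11, BAX, BAK1 and BAD), where the share of all genes was 33.9%. These counts were not tested, as the genes are a chosen list and the replicates form 1 group.

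The strongest promoter peaks had lower median ranks at the survival members than at the death-promoting members, with overlapping ranges and no test. In replicate 1 the median percentile was 82.4 over 3 survival members (range 18.5 to 95.4) and 92.8 over 7 death-promoting members (range 12.3 to 98.0). In replicate 2 it was 53.6 over 3 survival members (2.15 to 92.0) and 87.1 over the 6 death-promoting members that had one (63.4 to 95.1). The median over all protein-coding genes with a promoter peak was 82.2 in replicate 1 (13978 genes) and 77.9 in replicate 2 (11603 genes). The order of both groups was thus the same in each replicate, but the size of the gap depended on the measure. Some of these promoter peaks had summits beyond 3000 bp, as at BID in replicate 1 and BAX in replicate 2. These lay at -6751 and 4836 bp from the nearest start. As means of both replicates, the medians were 68.0 for survival and 90.0 for death-promoting members, and 68.0 and 86.5 when promoter peaks were assigned by summit. They were 77.6 and 84.4 with promoters within 1000 bp, and 87.1 and 91.3 when peaks were ranked by −log10 p. In each replicate BCL2 held the lowest place among the survival members and MCL1 the highest.

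**Figure D1:**
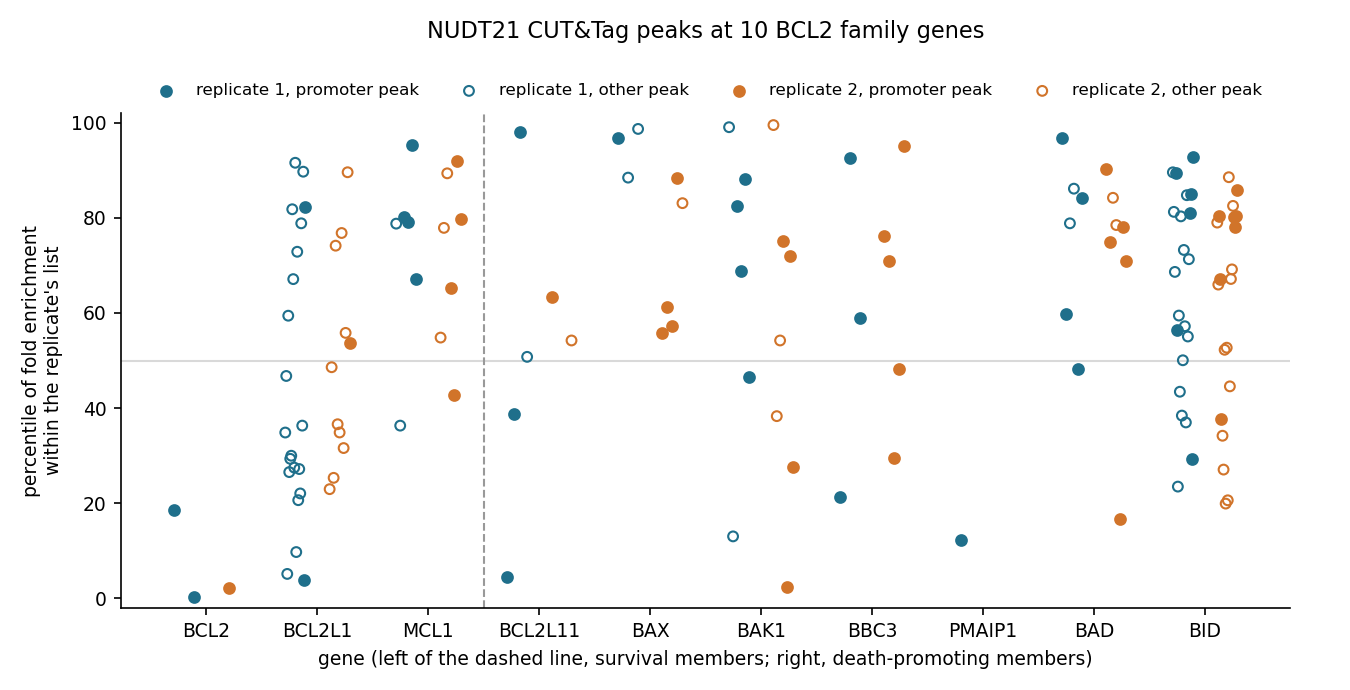
Percentile of the fold enrichment of each peak within its replicate's list (y axis) for the 10 genes (x axis), with filled circles for promoter peaks and open circles for other peaks, replicate 1 in blue and replicate 2 in orange. No point of BCL2 or PMAIP1 lies above 18.5, while the highest replicate 1 point of each other gene lies between 91.6 and 99.1.

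Sequences are shown for some regions of these genes, each read from hg38 on the strand of its gene. The first set holds the 5′ regions of MCL1, the survival member with the highest promoter percentiles, of BCL2 and PMAIP1, whose 5′ peaks ranked low, and of BAX. The MCL1 window is chr1:150579767-150579958 (minus strand) around the summits of both replicates, the BCL2 window is chr18:63320129-63320308 (minus strand) around the summit of the 5′ peak of replicate 1, the BAX window is chr19:48954625-48954814 (plus strand) and the PMAIP1 window is chr18:59899836-59899995 (plus strand). The BAX and PMAIP1 windows end at -61 and -1 bp and hold no summit. The peaks over the main start had their summits at 164 and 336 bp at BAX, and at 118 bp at PMAIP1. Capitals mark GC boxes (GGGCGG on either strand) in MCL1, BCL2 and PMAIP1, and E-boxes (CACGTG) in BAX.
MCL1 promoter: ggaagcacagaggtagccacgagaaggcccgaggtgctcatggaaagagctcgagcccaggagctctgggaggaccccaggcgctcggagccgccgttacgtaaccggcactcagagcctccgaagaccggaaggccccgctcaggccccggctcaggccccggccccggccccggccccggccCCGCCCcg
BCL2 promoter: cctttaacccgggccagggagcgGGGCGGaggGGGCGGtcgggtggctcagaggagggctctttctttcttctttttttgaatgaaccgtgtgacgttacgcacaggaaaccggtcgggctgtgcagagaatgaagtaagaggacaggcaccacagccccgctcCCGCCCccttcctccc
BAX promoter: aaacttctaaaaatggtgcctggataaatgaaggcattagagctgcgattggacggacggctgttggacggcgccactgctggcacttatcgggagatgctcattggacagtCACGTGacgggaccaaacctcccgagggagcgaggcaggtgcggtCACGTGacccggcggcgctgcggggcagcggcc
PMAIP1 promoter: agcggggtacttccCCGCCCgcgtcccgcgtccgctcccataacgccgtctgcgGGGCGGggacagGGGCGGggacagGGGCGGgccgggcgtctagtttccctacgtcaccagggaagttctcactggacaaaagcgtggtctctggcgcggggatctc

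The printed windows differ in length and in distance from the main start, so their counts are not compared. The printed MCL1 window held 1 GC box and 73.4% G and C, the BCL2 window 3 GC boxes and 61.7%, and the PMAIP1 window 4 GC boxes and 70%. Over windows from 250 bp before to 50 bp after the main start, with both strands searched, a GC box stood in 9 of the 10 members and in 61.3% of 20033 protein-coding genes. BCL2 was the member without a GC box in this window, while MCL1 held 3 and PMAIP1 held 4. The GC content of these windows ran from 58.7% at BAK1 to 82.3% at BBC3, and the median of all genes was 63.7%. The E-box stood in 8.76% of all windows and among the members only in that of BAX, which held 4 of them, a number that 0.030% of all windows reached. This holds for the main start only, as RefSeq promoter windows at other starts of BBC3 and BID also held an E-box. Such matches describe letters and say nothing of a bound factor.

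Among the survival members, BCL2, the founding member of the family, had the weakest peaks. The gene (ENSG00000171791.14, chromosome 18, 63123346 to 63320128, minus strand) spans 196783 bp, and 2 peaks of replicate 1 and 1 of replicate 2 were assigned to it, none of them shared. At its 5′ end, replicate 1 had a 450-bp peak (63319859 to 63320308) whose fold was 1.96, higher than 0.369% of the list. This summit held 35 fragments, above the list's median of 29, over a control level of 16, which was higher than at 96.9% of peaks. The other replicate 1 peak (63138163 to 63138587) lay 148 bp from an internal start, 181506 bp from the main start, with a fold of 2.98, 28 fragments over a control level of 8 and a percentile of 18.5. The replicate 2 peak (63155339 to 63155804) lay in an intron with a fold of 2.54, 27 fragments over 10.03 and a percentile of 2.15. All 3 BCL2 peaks had a fold below the median of their lists, 3.97 in replicate 1 and 4.23 in replicate 2. Peaks covered 0.353% and 0.237% of the gene, and 3196 protein-coding genes of like length (within a factor of 2) had a median cover of 0.495% and 0.208% and a median of 2 and 1 peaks over the body, so the number of peaks equalled this median in each replicate.

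MCL1, a short-lived survival protein, had the opposite pattern. The gene (ENSG00000143384.14, chromosome 1, 150560895 to 150579738, minus strand) had a peak over its main start in both replicates. The replicate 1 peak (150578526 to 150580635) showed a fold of 8.31, 44 fragments over a control level of 4 and a percentile of 95.4. The replicate 2 peak (150578764 to 150580662) showed a fold of 7.13, 22 fragments over 2.23 and a percentile of 92.0. The summits lay at -257 and -268 bp, 11 bp apart, both within the printed window. Both control levels were low in their lists, above those of 23.1% and 13.6% of peaks. A start of the unnamed gene ENSG00000290074 lies within 3000 bp of these peaks, which cannot be told apart from it.

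A further upstream peak of MCL1 had its summit at -2051 bp in both replicates, with folds of 4.66 and 5.62. Inside the gene, 2 promoter peaks near internal starts were shared, with folds of 5.44 and 4.79 and of 5.37 and 4.01. All of these internal summits lay in sequence with many copies in the genome, as described for the family as a whole. Replicate 1 alone had an intronic peak (150569302 to 150569992, fold 3.54), and replicate 2 alone had another (150563726 to 150564121, fold 6.61) that was higher than 89.4% of its list. The latter was the highest peak of the family that replicate 2 held alone.

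BCL2L1, which gives rise to BCL-XL and, by splicing, to the shorter BCL-XS, had many peaks of low to middle rank. The gene (ENSG00000171552.14, chromosome 20, 31664452 to 31723989, minus strand) held 21 peaks in replicate 1 and 11 in replicate 2, where 6585 genes of like length had a median of 2 and 1 over the body. Its promoter peak of replicate 1 (31722680 to 31724037) showed a fold of 5.67, 85 fragments over a control level of 13 and a percentile of 82.4. That of replicate 2 (31722690 to 31723993) showed a fold of 4.34, 37 fragments over 7.75 and a percentile of 53.6. Fragments were thus numerous in both replicates, above 96.6% and 92.2% of peaks, and so were the control levels, above 93.5% and 92.4%. A start of the noncoding gene ABALON lies within 3000 bp.

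All 11 replicate 2 peaks of BCL2L1 were shared, and 9 of the 21 replicate 1 peaks had no partner. Of these unpaired peaks, 1 lay in the promoter at 1116 bp (fold 2.36), and the others lay at 21755 bp (fold 5.36), 24954 bp (3.09), 26065 bp (3.25), 28679 bp (3.05), 35427 bp (2.66), 53330 bp (3.33), 56083 bp (2.43) and 56877 bp (3.88). The shared region with the highest lower percentile of the gene, chr20:31708281-31709414, lay in an intron with folds of 6.62 and 6.64 and percentiles of 89.7 and 89.6. Its summits were 15 bp apart, with 42 fragments against a control level of 5 and 26 against 3.06. A summit at 37645 bp fell on the same base in both replicates, with folds of 6.99 and 5.41, in sequence with many copies in the genome and within 3000 bp of a start of the antisense gene BCL2L1-AS1.

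**Figure D2:**
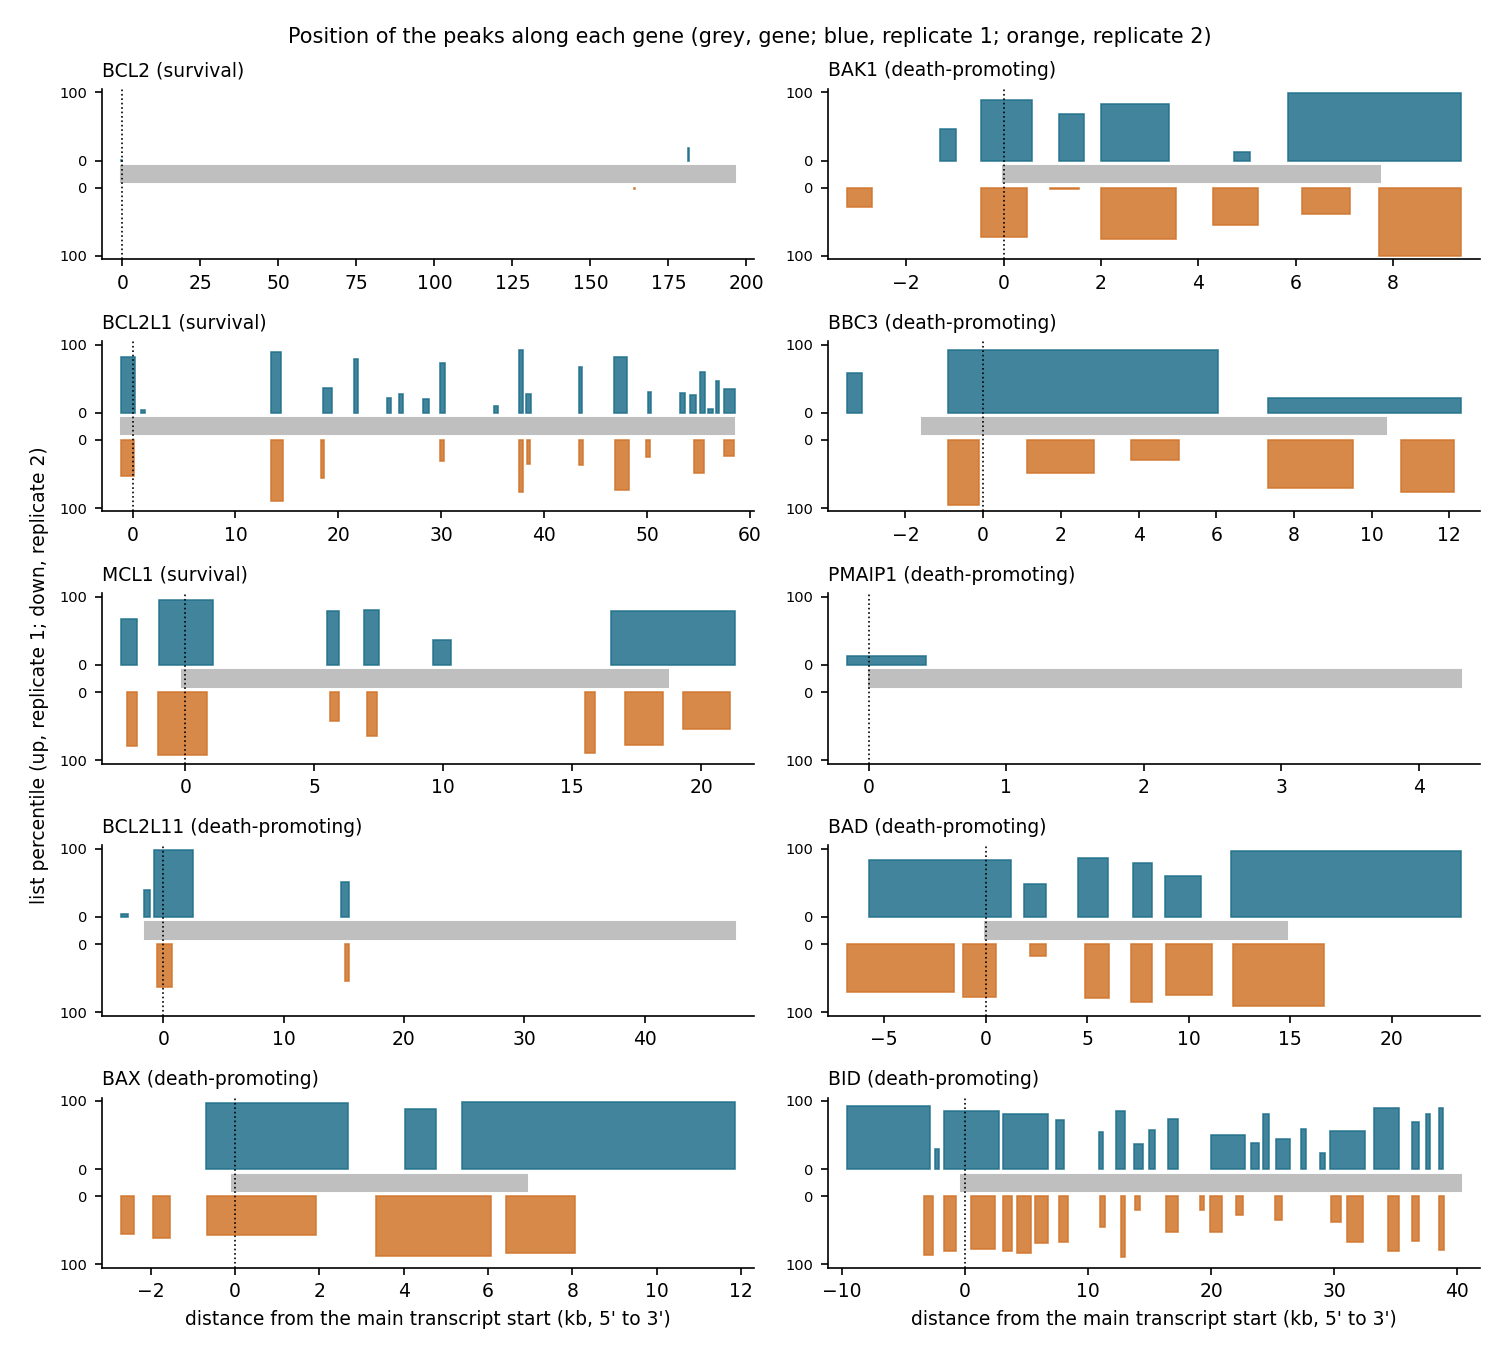
Peaks along each of the 10 genes by distance from the main transcript start in kb (x axis, 5′ to 3′, with its own range for each gene and a dotted line at the start), where the grey bar is the gene and the height of a box is the peak's percentile, upward for replicate 1 (blue) and downward for replicate 2 (orange). BCL2, over 196783 bp, has 3 narrow boxes near the baseline, of which the 5′ box of replicate 1, at a percentile of 0.369, is hardly visible, whereas boxes line most of BAX, BAK1, BBC3, BAD and BID.

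Of the death-promoting members, BAX and BAK1, which form the pores in the mitochondrial membrane, carried wide peaks over much of their short bodies. BAX (ENSG00000087088.21, chromosome 19, 48954815 to 48961798, plus strand) had its main start inside a replicate 1 peak (48954195 to 48957546) that showed a fold of 9.28, 62 fragments over a control level of 5.26 and a percentile of 96.8. In replicate 2 the start lay in a peak (48954205 to 48956806) that showed a fold of 4.49, 26 fragments over 5.01 and a percentile of 57.3. The control levels were close in number but stood above 42.3% of peaks in replicate 1 and 72.5% in replicate 2. The fragments stood above 92.3% and 75.1%. The strongest promoter peak of replicate 2, from 48958226 to 48960936, had a fold of 6.46 with its summit at 5814 bp, near the 3′ end, where 17 fragments lay over a control level of 1.78. A pair of upstream peaks at -2529 and -1700 bp, with folds of 4.42 and 4.64, was called in replicate 2 only, on 11 fragments each and in sequence with many copies in the genome.

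BAK1 (ENSG00000030110.14, chromosome 6, 33572547 to 33580293, minus strand) had a peak over its main start in both replicates. The folds were 6.34 (33579698 to 33580736, 54 fragments over a control level of 7, percentile 88.1) and 5.10 (33579787 to 33580731, 28 fragments over 4.69, percentile 71.9). A second promoter region, 33576740 to 33578273, had folds of 5.67 and 5.30 and was the strongest promoter peak of replicate 2. Of the BAK1 peaks, the upstream peak of replicate 1 (33581247 to 33581586, fold 3.87) alone lacked a partner. All BAK1 summits lay in an intron of GGNBP1, which has a start within 3000 bp of the 5′ peaks.

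The highest ranked region of the whole family lay just past the 3′ end of BAK1. The replicate 1 peak (33570870 to 33574431) showed a fold of 13.4, which ranked 906 in its list, with 90 fragments over a control level of 5.26. The replicate 2 peak (33570870 to 33572557) showed a fold of 13.5, which ranked 333, with 54 fragments over 3.06. The percentiles were 99.1 and 99.5, and the summits lay 1352 and 1414 bp past the end of the gene, 62 bp apart and in an intron of GGNBP1. The sequence under both summits, chr6:33571073-33571255 on the minus strand, is printed with capitals for its 1 GC box and its 1 TGTA. TGTA corresponds to UGUA, the RNA letters that NUDT21 is known to bind. The window lies past the annotated end of BAK1, so this TGTA is outside its annotated transcripts. A link of these letters to the peak was not tested.
BAK1 downstream: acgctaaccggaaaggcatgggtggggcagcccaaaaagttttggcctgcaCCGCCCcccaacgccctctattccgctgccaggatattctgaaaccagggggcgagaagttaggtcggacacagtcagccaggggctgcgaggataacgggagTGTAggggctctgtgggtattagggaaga

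BCL2L11, which encodes BIM and is needed for the deletion of self-reactive thymocytes, had the highest promoter percentile of the family in replicate 1 and a middle one in replicate 2. The gene (ENSG00000153094.25, chromosome 2, 111119378 to 111168444, plus strand) showed a fold of 10.6 in the replicate 1 peak over its start (111120177 to 111123352) on 66 fragments, against a control level of 4.82, and a percentile of 98.0. The replicate 2 peak (111120367 to 111121615) showed a fold of 4.70, 18 fragments over 3.05 and a percentile of 63.4. The summits lay at -303 and 155 bp, 458 bp apart and on either side of the main start. An intronic region, 111135718 to 111136345, was shared with folds of 4.01 and 4.38. A pair of upstream peaks, 111117366 to 111117962 (fold 2.40) and 111119327 to 111119793 (fold 3.62), was called in replicate 1 only, and both lay within 3000 bp of a start of ACOXL-AS1. All summits within the gene lay in an intron of MIR4435-2HG.

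BBC3, which encodes PUMA, a target of p53, was covered by peaks over more of its body than any other member in replicate 1. The gene (ENSG00000105327.18, chromosome 19, 47220822 to 47232766, minus strand) carried a single replicate 1 peak of 6952 bp (47225141 to 47232092) at a fold of 7.29, 86 fragments over a control level of 10 and a percentile of 92.6. Its summit lay at 4835 bp, near an internal start. Replicate 2 had 3 peaks in the same interval, of which the strongest, from 47231294 to 47232100, had a fold of 7.96, 38 fragments over 3.90 and a percentile of 95.1. That peak had its summit at -328 bp and ended 95 bp short of the main start. The inner replicate 2 peaks had folds of 3.64 and 4.17, and starts of the microRNA genes MIR3190 and MIR3191 lie within 3000 bp of them. Replicate 1 alone had an upstream peak (47234330 to 47234714, fold 4.31).

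PMAIP1, which encodes NOXA, a BH3-only protein that binds MCL1, had the fewest peaks. The gene (ENSG00000141682.12, chromosome 18, 59899996 to 59904305, plus strand) had 1 replicate 1 peak over its main start (59899837 to 59900414) and 0 peaks in replicate 2. The fold was 2.77, higher than 12.3% of the list, with 29 fragments, equal to the list's median, over a control level of 9, which was above that of 78.1% of peaks. That no peak was called in replicate 2 does not show that NUDT21 was absent there, and the reason was not tested. Of the 10 genes, PMAIP1 and BCL2 were the ones in which no peak of either replicate overlapped a peak of the other.

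BAD, a BH3-only protein that growth-factor signals inactivate by phosphorylation, had its summit on the same base in both replicates. The gene (ENSG00000002330.14, chromosome 11, 64269830 to 64284704, minus strand) had its main start inside a peak of each replicate (64283407 to 64290403 and 64284158 to 64285773), with the summit at 41 bp in each. The folds were 5.84 (75 fragments over a control level of 11, percentile 84.2) and 5.47 (38 fragments over 6.13, percentile 78.0). A stronger promoter peak lay at the other end of the gene, near internal starts. In replicate 1 (64261236 to 64272578) it showed a fold of 9.35, 141 fragments over a control level of 13 and a percentile of 96.8. In replicate 2 (64268014 to 64272482) it showed a fold of 6.76, 66 fragments over 8.91 and a percentile of 90.3. At 11343 bp the former was the longest peak of the family. BAD overlaps GPR137, and starts of GPR137 and, in replicate 1, PLCB3 lie within 3000 bp of this peak, while those of KCNK4 and KCNK4-TEX40 lie near the upstream peaks. Signal here cannot be told apart between these genes.

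BID, which caspase-8 cleaves to link death receptors to mitochondria, carried peaks along its whole length. The gene (ENSG00000015475.19, chromosome 22, 17734138 to 17774770, minus strand) had 21 peaks in replicate 1 and 20 in replicate 2, with 14 and 19 of them shared. Over the body it had 19 and 18, where 7099 genes of like length had a median of 2 and 1. The strongest promoter peak of replicate 1, 17777322 to 17784103, showed a fold of 7.38 (95 fragments over a control level of 11, percentile 92.8). That of replicate 2, 17777067 to 17777815, showed a fold of 6.15 (29 fragments over 3.88, percentile 85.9). Both lay upstream with summits at -7052 and -3168 bp, 3884 bp apart, and a start of LINC00528 lies within 3000 bp. The main start lay in a peak of replicate 1 (17771742 to 17776194, fold 5.95, 57 fragments over 8), and in replicate 2 the nearest peak, with a fold of 5.47 and 41 fragments over 6.68, ended 501 bp from it. Their summits, at 1938 and 1939 bp, were 1 bp apart.

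Peaks of BID with no partner had their summits at -2281 bp (fold 3.33), 15032 bp (4.23), 23688 bp (3.61), 24496 bp (5.44), 27460 bp (4.33), 28867 bp (3.13) and 37631 bp (5.54) in replicate 1, and at 19201 bp (3.31) in replicate 2. Their folds ran from 3.13 to 5.54, below that of the strongest promoter peak of either replicate.

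Intronic sequence under agreeing summits is shown for BCL2L1 and BID, since these genes held most of the peaks outside promoters. The BCL2L1 window is chr20:31708589-31708744, and the BID window is chr22:17735733-17735864 (summits at 38665 and 38676 bp, folds 6.59 and 5.55), both on the minus strand. Capitals mark a GC box in BCL2L1, and the BID window held none.
BCL2L1 intron: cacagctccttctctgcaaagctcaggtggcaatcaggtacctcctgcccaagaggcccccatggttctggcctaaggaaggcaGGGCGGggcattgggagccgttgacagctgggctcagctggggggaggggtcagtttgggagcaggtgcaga
BID last intron: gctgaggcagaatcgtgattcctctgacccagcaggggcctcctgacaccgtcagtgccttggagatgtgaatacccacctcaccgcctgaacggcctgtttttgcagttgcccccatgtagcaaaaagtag

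Some summits lay in sequence with many copies in the genome, counted in words of 20 bases on chromosomes 1 to 22, X and Y. By the measure that at least 50% of the words within 75 bp of a summit have at least 100 copies, 18 of 73 member summits (24.7%) in replicate 1 and 12 of 65 (18.5%) in replicate 2 lay in repeated sequence. Of every 50th peak of the lists, 12.9% and 12.4% did. BCL2L1 had 7 and 2 such summits, BID 6 and 4, and MCL1 2 and 2, whereas BCL2, BCL2L11, BBC3 and PMAIP1 had 0. Without these peaks 55 and 53 remained, and the count of 9 genes and the median percentiles of the strongest promoter peaks did not move. The part of read placement in the intronic peaks was not tested.

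Gene ends were examined because NUDT21 acts in 3′ end processing. A peak within 1000 bp of the annotated gene end was present in both replicates at 6 members (BCL2L1, MCL1, BAX, BAK1, BBC3 and BAD), where 25.7% of all protein-coding genes had one, and at none of BCL2, BCL2L11, PMAIP1 and BID in either replicate. Both groups were represented, with 2 of 3 survival and 4 of 7 death-promoting members. When the summit itself, rather than the nearest edge, had to lie within 1000 bp, 2 genes (BCL2L1 and BBC3) had such a peak in both replicates.

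At BCL2L1 the summits of the end peaks lay in the 3′ UTR, with folds of 3.49 (31664294 to 31665401, percentile 34.9) and 3.43 (31664393 to 31665364, percentile 23). At MCL1 a replicate 1 peak (150558288 to 150563103, fold 5.35) faced peaks with folds of 4.38 and 5.46 in replicate 2, and all of them lay within 3000 bp of starts of ADAMTSL4 and its antisense genes. They lay at the outermost annotated end of MCL1, 150560895, and not at the end of its main transcript, 150574558. The shared promoter peak of MCL1 with folds of 5.37 and 4.01 lay within 1000 bp past the end of the main transcript. The end peak of BAX was among the highest of the family in replicate 1 (48960269 to 48966739), at a fold of 12.2, 105 fragments over a control level of 7 and a percentile of 98.7. Its summit lay 3484 bp past the gene, within a peak that also reached a start of FTL, the gene of ferritin light chain. In replicate 2 the peaks at this end had folds of 6.46 and 5.87, and the latter also lay near FTL.

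At BBC3 the end peak of replicate 1, from 47218888 to 47223860 with its summit 167 bp past the gene, had a fold of 3.08 and a percentile of 21.3. The 2 end peaks of replicate 2 had folds of 5.36 and 5.03 and percentiles of 76.3 and 70.9. Beside the downstream peak, BAK1 had a second end peak in replicate 2, from 33573159 to 33574134 with its summit in the 3′ UTR and a fold of 3.88. The end peaks of BAD were the promoter peaks near its internal starts, given above. Those of BBC3 also counted as promoter peaks, as did the BAX peak of replicate 2 from 48958226 to 48960936.

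TGTA stood in the last 100 bases of the main transcript at 5 of the 10 genes, and at 51.9% of all protein-coding genes. It was there in 3 of the 6 members with a gene-end peak and in 2 of the 4 without, and BBC3 held 4 of them. Gene-end peaks were placed by the outermost annotated end of the gene. At MCL1 this is 150560895, while the main transcript ends at 150574558, so its TGTA and its gene-end peak lie at different places. The polyadenylation signal AATAAA stood in the last 50 bases of the main transcript at 9 members, all but PMAIP1, and at 63.5% of all genes. With 10 genes, no relation of TGTA to gene-end peaks was tested.

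Peak cover differed widely among the members. In replicate 1 peaks covered 83.6% of BBC3, 71.5% of BAX, 62.8% of BAD, 61.1% of BAK1 and 55.2% of BID. In replicate 2 the order was BAX with 74.6%, BAK1 with 58.8%, BAD with 56.8%, BBC3 with 49.9% and BID with 35.0%. The survival members MCL1 (27.4% and 19.1%) and BCL2L1 (20.5% and 13.3%) came next in both replicates, ahead of BCL2L11 with 8.56% and 3.25%. PMAIP1, with 9.72% in replicate 1 and 0% in replicate 2, lay below the median of genes of its length, 18.7% and 9.63%. The median over all protein-coding genes was 2.81% and 1.11%. Short genes had more cover in general, with a median of 16.8% and 9.40% for genes of the length of BAX.

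**Figure D3:**
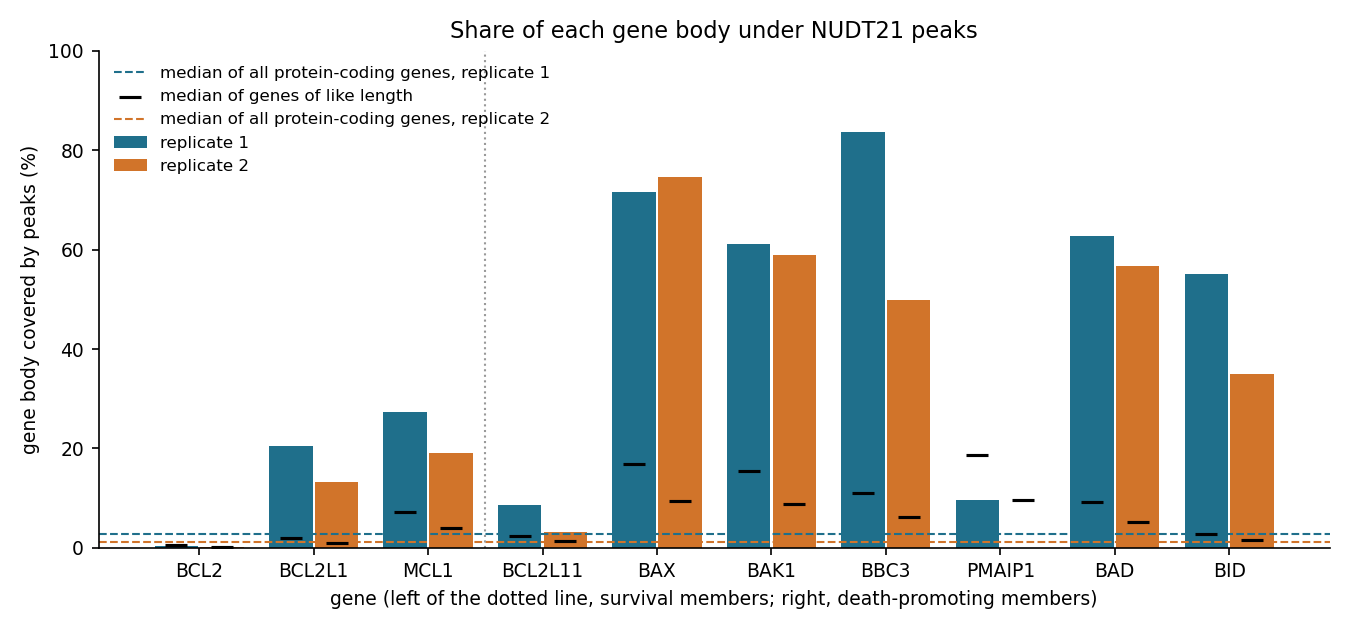
Percentage of each gene body covered by peaks (y axis, from 0) for the 10 genes (x axis), with bars for replicate 1 (blue) and replicate 2 (orange), dashed lines at the medians of all protein-coding genes (2.81% and 1.11%) and black dashes at the medians of genes of like length. BAX, BAK1, BBC3, BAD and BID rise to between 35.0% and 83.6%, while BCL2 stays at 0.353% and 0.237% and PMAIP1 lies below its black dash in both replicates.

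The folds of the strongest promoter peaks combined different numbers of fragments with different control levels. In replicate 1 MCL1 reached its fold of 8.31 on 44 fragments over a level of 4, whereas BCL2L1 had 85 fragments and a fold of 5.67 over a control level of 13. BCL2 in both replicates and PMAIP1 in replicate 1 had 27 to 29 fragments over levels of 8 to 10.03, and they had the lowest folds. Fragments at these 3 summits were above those of 44.2% and 77.8% of the peaks of their lists at BCL2 and of 47.7% at PMAIP1. Control levels at BCL2 and PMAIP1 were above those of at least 71.0% of peaks. The part of the control level in the low folds was not tested.

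**Figure D4:**
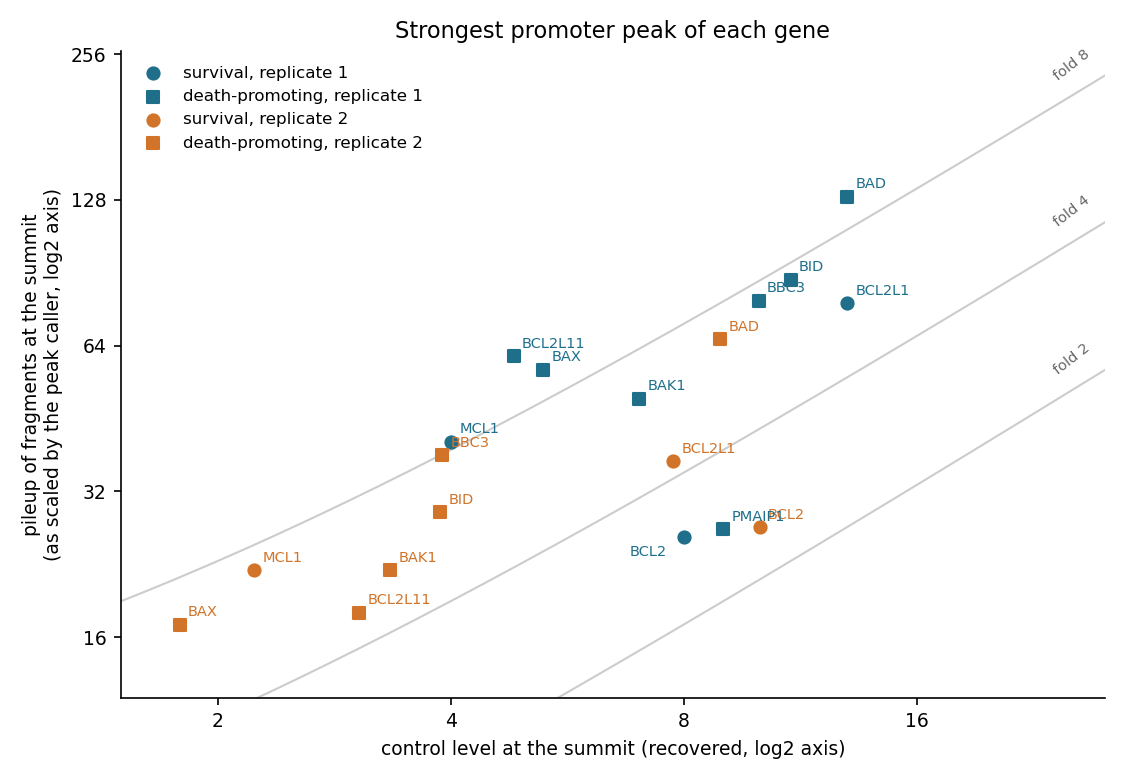
Control level (x axis) and pileup of fragments, as scaled by the peak caller (y axis), at the summit of the strongest promoter peak of each gene, both recovered from the deposited values and on log2 axes, with circles for survival and squares for death-promoting members, replicate 1 in blue and replicate 2 in orange. Grey lines join points of equal fold, and the BCL2 points and PMAIP1 lie between folds of 2 and 4, below all other genes.

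The share of peaks found in both replicates was higher over the 10 genes than over the lists as a whole. Of the member peaks of replicate 1, 67.1% (49 of 73, 95% Wilson interval 55.7 to 76.8) overlapped a replicate 2 peak by at least 1 bp, and of the replicate 2 peaks 92.3% (60 of 65, 83.2 to 96.7) overlapped a replicate 1 peak. Over the lists the shares were 55.3% and 85.9%. The survival members had 58.6% (40.7 to 74.5) and 89.5% (68.6 to 97.1), and the death-promoting members 72.7% (58.2 to 83.7) and 93.5% (82.5 to 97.8). These intervals overlap and hold the shares of the lists, apart from those of the family as a whole and of the death-promoting members in replicate 1, which lie above 55.3%. Neighbouring peaks share reads and are not independent, so the intervals cover counting error only.

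Overlapping peaks formed 47 shared regions, 16 at survival and 31 at death-promoting members, and 21 of them were promoter regions. Their closest summits lay a median of 87 bp apart, and in 13 regions within 20 bp. With a reciprocal overlap of at least 50% the mean share of shared peaks dropped from 79.7% to 41.4%. Peaks without a partner had lower folds in both replicates, with a median of 3.33 over 24 peaks against 5.36 for shared peaks in replicate 1, and 4.42 over 5 peaks against 4.88 in replicate 2. Most summits lay in introns, 49 of 73 and 40 of 65, and 3 in each replicate lay in the 5′ UTR, with 1 and 2 in the 3′ UTR.

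Other genes of the apoptotic pathway were counted in the same way. A promoter peak stood in each replicate at 8 of 13 further BCL2 family genes, and BCL2A1, BCL2L10, BCL2L14 and BCL2L15 had none in either. The highest fold of that list was at BCL2L12, with 9.92 and 10.8. Among 13 genes of the apoptosome and the caspases, which execute the death program, 12 had one in each replicate and CASP10, an initiator caspase of death receptors, had none. The highest folds were 29.7 at CASP9, the caspase of the apoptosome, in replicate 1, and 10.8 at ENDOG, a mitochondrial nuclease, in replicate 2. CASP9 stood at a percentile of 99.95 in replicate 1 and 63.6 in replicate 2.

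Such a pair stood at 4 of 6 inhibitor of apoptosis genes and NAIP had none, and the highest folds were at BIRC5 (survivin), with 6.72 and 8.89. Death receptor genes had one in 5 of 7 cases, without FASLG, the ligand of FAS. The highest were CFLAR, an inhibitor of caspase-8, with 8.31 in replicate 1, and the receptor gene TNFRSF1A with 12 in replicate 2. Against 57.0% of all protein-coding genes, the lists together do not allow a test, as their genes were chosen.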

How the data were processed

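NUDT21 CUT&Tag of J.gamma1 cells was available as 2 peak lists, 1 per replicate, in 1 group. Per the labels and the methods of the study, the authors processed reads with fastp, aligned them to hg38 with Bowtie2 (version 2.2.5), removed duplicates with Picard and called peaks in each replicate with MACS3 (version 3.0.1). The deposited values were, for each summit, its fold enrichment (a ratio), its −log10 p, its −log10 q and its offset. The sources used here describe no control library. MACS scales pileups to match a control of different depth, so the scaled pileup given below points to such a library in peak calling, and what it held is unknown. Read totals were not used, so the depth is unknown in absolute terms.

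From the deposited fold and −log10 p, the number of fragments and the control level at each summit were recovered (solved for at least 99.99% of peaks, relative tolerance 0.0002), with the pileup of replicate 1 scaled by 0.921. Tested on 2938 simulated summits with an unscaled pileup, 100% of the fragment numbers were returned, and 3.23% of summits had a solution after p was shuffled. The estimate of the scale, from 199 summits in replicate 1 and 35 in replicate 2, was not part of this simulation.

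Genes were those of GENCODE 44 on hg38. Percentiles and ranks of peaks were taken over all 97162 and 68532 peaks of the lists. The list peaks examined for repeated sequence came from the 92722 and 66671 peaks on chromosomes 1 to 22, X and Y. The members, gene lists and alternatives were chosen with earlier results of these data known. Named in full were the strongest promoter peak of each member, gene-end peaks and peaks of 1 replicate, with neighbours whose starts lie within 3000 bp. Genes of wider lists were named where they had no promoter peak or the highest fold. No test was made, because 1 group of 2 replicates and a chosen list allow none. Shares carry 95% Wilson intervals. GC boxes, E-boxes and 20-base words were counted in hg38 on both strands, and TGTA and AATAAA on the gene strand only. Of the 10 members, 9 have an entry in a RefSeq promoter table, whose sequences equalled hg38. Scripts used Python 3.11.15, numpy 2.4.6, pandas 2.3.3 and samtools 1.23.1.

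As alternatives, lists were limited to a −log10 q of 5 or more or to the top 10000 peaks by −log10 p, and results were recomputed with other promoter and gene-end distances, peak summits, starts of protein-coding transcripts, other overlap rules, ranking by −log10 p and each replicate alone. A sequence at 1 member is not reported here.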

Additional observations from a re-analysis of the deposited data

How the results depend on the processing

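Of 69 values recomputed for 8 results, 58 stayed within a factor of 1.5 (counts) or 1 SD between replicates (shares and percentiles), and 11 moved. For shares and percentiles, a replicate alone cannot lie more than 1 SD from the mean of both, so it stayed by construction. The rule was also wide for the survival members, with an SD of 20.3, so that a median percentile of 87.1 against 68.0 counted as stayed. Limiting each list to its top 10000 peaks by −log10 p gave 7 of the 11 values that moved. It left 4 members with a promoter peak in both replicates (1 survival and 3 death-promoting) and 3 with a gene-end peak, a mean of 11.5 peaks at members against 69, and median percentiles of 41.5 (survival) and 47.7 (death-promoting) within the shorter lists, against 68.0 and 90.0. With fewer peaks, fewer genes can be reached. By peak summits, 2 members had a gene-end peak in both replicates against 6. The mean share of shared peaks was 41.4% with a reciprocal overlap and 44.3% with summits within 200 bp, against 79.7%. With promoters within 1000 bp, the median percentile was 84.4 for death-promoting and 77.6 for survival members, and ranked by −log10 p it was 91.3 and 87.1, so both settings narrowed the gap between the groups. The cause of these last shifts was not tested.

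Each replicate alone gave 9 to 10 members with a promoter peak, 3 survival and 6 to 7 death-promoting members, 6 members with a gene-end peak, 65 to 73 peaks, shares of 67.1% to 92.3%, and median percentiles of 53.6 to 82.4 (survival) and 87.1 to 92.8 (death-promoting). The requirement that promoter peaks overlap or hold the main start, and the removal of summits in repeated words, were chosen after seeing the data. No paired analysis was possible because there is only a single group. With unknown read totals and an undescribed control, a missing peak says only that none was called at this depth.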
